A study of Mus musculus with 6 samples.

Results

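The RNA of 10 imprinted genes was examined in haematopoietic stem cells (HSCs) sorted from mouse bone marrow. The genes were H19, Igf2, Meg3, Dlk1, Grb10, Peg3, Plagl1, Ndn, Gnas and Impact. They were taken by symbol from a table of 46959 rows, and each symbol matched 1 row. HSCs came from 8-week-old MaeaCsf1r-Cre mice and their control littermates, with 3 libraries per group and about 2000 sorted cells per library, pooled from a pair of mice. MaeaCsf1r-Cre mice carry floxed Maea alleles (fl/fl) and the Csf1r-iCre transgene, which was backcrossed onto C57BL/6. Csf1r drives Cre classically in mononuclear phagocytes, and in these mice it also deletes Maea in haematopoietic stem and progenitor cells. The labels call the other group control and do not give its alleles. The transcriptomes were compared to learn how Maea, a subunit of an E3 ubiquitin ligase complex, acts in HSCs.

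An imprinted gene is expressed mainly from the allele of 1 parent, because a methylation mark set in the egg or sperm is kept through every later cell division. Many imprinted genes act on fetal growth. In blood, several are known to be expressed most in the most dormant stem cells, and the maternally expressed cell cycle inhibitor Cdkn1c (p57) is needed for adult HSC quiescence. The libraries give the summed RNA of both alleles. They hold no measurement of which allele was read or of methylation.

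Of the 10 genes, 5 passed the filter on low values (a CPM, or read count scaled to a common library size, of at least 1 in at least 3 libraries). None of the 5 passed the test between groups, against 1 of 12955 genes tested, or 0.00772%. Grb10, Ndn and Impact had lower means in MaeaCsf1r-Cre HSCs, with log2 fold changes of -0.53, -1.15 and -0.55. Gnas differed by -0.03 and Dlk1 by 0.27. H19, Igf2, Meg3, Peg3 and Plagl1 were near or under the limit of detection in at least 1 library each. Without a pairing of libraries the smallest adjusted p of the 5 was 0.967. With the replicate number as a block it was 0.131, for Ndn.

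**Figure D1:**
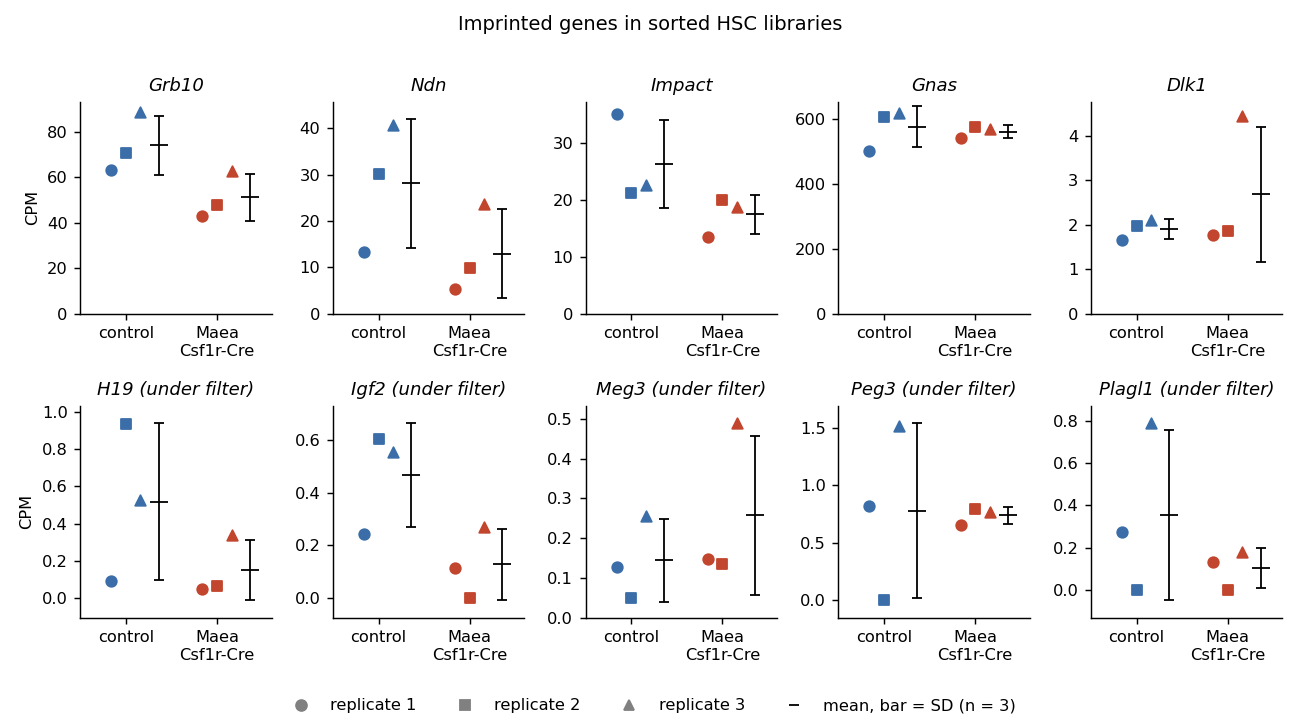
CPM of each imprinted gene (y axis, linear) in 3 control and 3 MaeaCsf1r-Cre libraries, with marker shape for the replicate number and a bar for the mean and SD. Grb10 and Impact show no overlap between groups, Ndn is lower in MaeaCsf1r-Cre in every same-numbered pair, and the lower row holds genes under the filter.

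Maea itself was measured at 108, 116 and 123 CPM in control and at 76.9, 88.6 and 101 CPM in MaeaCsf1r-Cre libraries. The groups did not overlap, with a log2 fold change of -0.39 (SE 0.13) and an adjusted p of 0.967. Reads were summed over the whole gene, so the deleted exons could not be viewed on their own. The number of reads behind the scaling was 32964000 to 39611000 in control and 44155000 to 60932000 in MaeaCsf1r-Cre libraries.

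All 15 HSC marker genes, Mecom, Hlf, Procr and Fgd5 among them, were at 3 reads or more in every library. Their summed CPM was 1437, 2196 and 2063 in control and 1012, 1505 and 1908 in MaeaCsf1r-Cre libraries 1, 2 and 3. Replicate 1 was thus the lowest library of each group. Klf1, an erythroid transcription factor, was highest there, at 319 and 331 CPM against 94.0 to 202 CPM in the other libraries. The summed CPM of 8 erythroid markers was 537, 196 and 237 in control and 507, 244 and 403 in MaeaCsf1r-Cre libraries 1, 2 and 3. The globin genes in that list did not all follow Klf1, since Hba-a1 was at 30.5, 11.3 and 26.0 CPM in control and at 10.5, 17.6 and 32.5 CPM in MaeaCsf1r-Cre libraries. The endothelial receptor gene Kdr was highest in replicate 3 of both groups, at 32.6 and 33.4 CPM, followed by 12.4 CPM in control replicate 1 and 2.33 to 2.52 CPM in the other libraries. Of 12 macrophage markers, 10 to 12 were at 3 reads or more in control libraries and 5, 4 and 11 in MaeaCsf1r-Cre libraries 1, 2 and 3. C1qb, a complement gene of macrophages, was at 8.98, 3.79 and 5.37 CPM in control and at 0.0328, 0 and 0.474 CPM in MaeaCsf1r-Cre. Not every macrophage marker separated the groups. Mrc1 was at 5.40, 0.505 and 9.93 CPM in control and at 0.164, 0.226 and 10.8 CPM in MaeaCsf1r-Cre. The summed CPM of the 12 markers was 80.4, 36.7 and 74.3 in control and 6.10, 14.3 and 58.7 in MaeaCsf1r-Cre libraries. In bulk RNA, fewer cells of a type and less RNA per cell cannot be told apart.

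Levels were compared between genes as CPM per kb of merged exon. Gnas was highest, with a median of 51.2 CPM per kb over the 6 libraries (range 45.0 to 55.5). Grb10 followed at 6.94 (4.75 to 9.75), Ndn at 5.01 (1.45 to 11.0) and Impact at 4.03 (2.64 to 6.85) CPM per kb. The ranges of these 3 neighbours overlapped, so their order is not firm. Dlk1 lay below them without overlap, at 0.338 CPM per kb (0.295 to 0.785). H19, Peg3, Igf2, Plagl1 and Meg3 had medians of 0.0873, 0.0585, 0.0448, 0.0199 and 0.00784 CPM per kb, and each overlapped its neighbour. Gnas, which encodes the stimulatory G protein alpha subunit, and 3 genes of moderate level therefore stood above 6 genes of low level in these HSCs.

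Among the regulators of growth signalling, Grb10 encodes an adaptor that binds the insulin and IGF1 receptors, dampens their signal and is a substrate of mTORC1. It lies on chromosome 11 at 11930508-12038683 on the minus strand (GRCm38) and is maternally expressed in most tissues. Grb10 was at 63.2, 70.7 and 88.6 CPM in control libraries 1, 2 and 3. It was at 43.2, 47.7 and 63.0 CPM in MaeaCsf1r-Cre libraries 1, 2 and 3. The highest MaeaCsf1r-Cre library lay just under the lowest control library. This pattern, every MaeaCsf1r-Cre library below every control library, was held by 6.06% of the genes tested, and the reverse by 2.49%.

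Within same-numbered pairs, the MaeaCsf1r-Cre level of Grb10 was 68.4, 67.5 and 71.2% of control. A lower value in all 3 pairs was found for 23.5% of genes tested, and a higher value in all 3 for 13.2%. The log2 fold change of Grb10 was -0.53 (SE 0.19, n = 3 per group, adjusted p = 0.967 by limma). With the replicate block its SE was 0.09 and its adjusted p was 0.166, so it did not pass either way. Relative to the HSC marker list, Grb10 was at 44.0, 32.2 and 42.9 CPM per 1000 CPM of the list in control. The same ratio was 42.7, 31.7 and 33.0 in MaeaCsf1r-Cre libraries. On this scale, which was chosen after the values were seen, the groups overlapped, and the part of the HSC marker level in the difference was not tested.

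Ndn encodes necdin, a nuclear protein of the MAGE family that restrains proliferation and is known to favour HSC quiescence. It lies on chromosome 7 at 62346569-62350262 on the plus strand and is paternally expressed. Ndn was at 13.4, 30.1 and 40.7 CPM in control libraries 1, 2 and 3. In MaeaCsf1r-Cre libraries 1, 2 and 3 it was at 5.37, 9.90 and 23.7 CPM. Replicate 1 was lowest and replicate 3 highest in both groups, and the groups overlapped because MaeaCsf1r-Cre replicate 3 lay above control replicate 1.

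Ndn varied more between libraries than any other of the 5 genes tested, with an SD of 1.02 on the log2(CPM + 1) scale. Its highest library was 7.59 times its lowest. Within pairs the MaeaCsf1r-Cre level was 40.1, 32.9 and 58.1% of control. The log2 fold change was -1.15 (SE 0.54, adjusted p = 0.967), and 62 of 12955 genes tested had one as low or lower. With the replicate block the SE was 0.17 and the adjusted p was 0.131. Per 1000 CPM of the HSC list, Ndn was at 9.31, 13.7 and 19.7 CPM in control and at 5.30, 6.58 and 12.4 CPM in MaeaCsf1r-Cre. It remained lower in 3 of 3 pairs on that scale, with overlap between groups.

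The genes whose levels over the 6 libraries were most like those of Ndn were Tns2, Fgd5 and Nbea. Likeness was the root mean square difference of log2(CPM + 1), each gene centred on its own mean, and was 0.15, 0.16 and 0.17 for the 3 genes among 12953 searched. Fgd5 is itself 1 of the 15 HSC markers. It was at 15.4, 36.0 and 37.7 CPM in control and at 6.81, 13.2 and 30.6 CPM in MaeaCsf1r-Cre libraries. Tns2, which encodes a focal adhesion protein, was at 7.67, 14.7 and 23.7 CPM in control and at 1.82, 4.57 and 12.5 CPM in MaeaCsf1r-Cre libraries. Nbea was at 4.19, 8.66 and 11.3 CPM in control and at 1.53, 3.36 and 8.29 CPM in MaeaCsf1r-Cre libraries. All of these were lowest in replicate 1 of each group, as Ndn was.

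**Figure D2:**
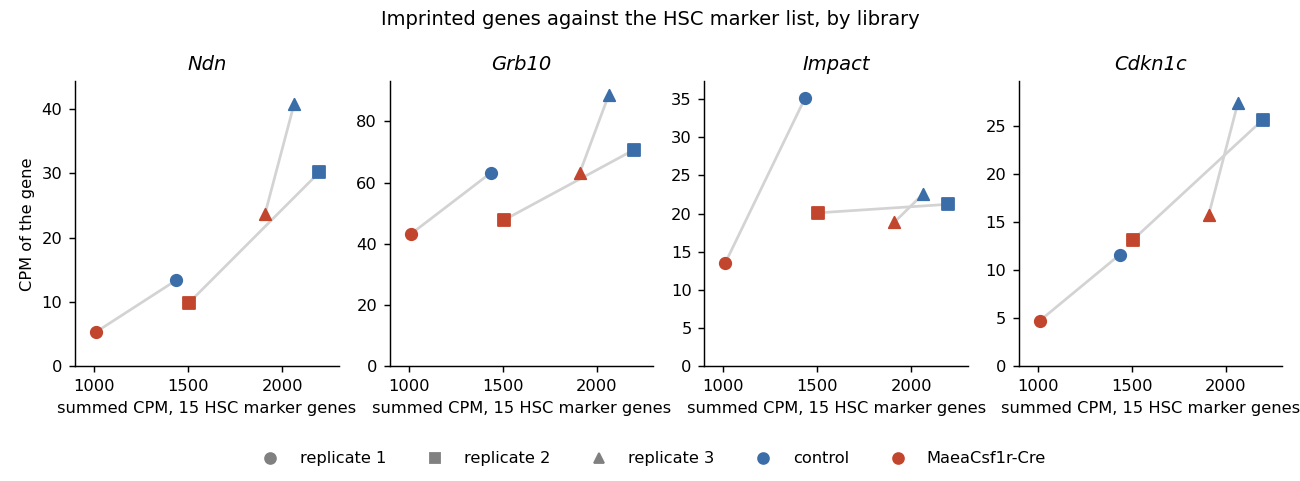
CPM of Ndn, Grb10, Impact and Cdkn1c (y axes, linear from 0) against the summed CPM of 15 HSC marker genes (x axis) in each library, with grey lines joining same-numbered libraries. MaeaCsf1r-Cre replicate 1 has the lowest HSC sum (1012 CPM) and the lowest Ndn, Grb10, Impact and Cdkn1c, while control replicate 1 has the highest Impact.

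The start regions of Grb10 and Ndn are shown because, of the 5 genes that passed the filter, these were 2 of the 3 with a lower value in every pair. Each window holds 250 bases before and 50 bases after the RefSeq start on GRCm38.p6, read 5′ to 3′ on the strand of the gene, with CpG sites in capitals. The Grb10 window is chr11:12037371-12037670 on the minus strand. The Ndn window is chr7:62348027-62348326 on the plus strand. Both starts lie inside the gene spans of the annotation given above.
Grb10: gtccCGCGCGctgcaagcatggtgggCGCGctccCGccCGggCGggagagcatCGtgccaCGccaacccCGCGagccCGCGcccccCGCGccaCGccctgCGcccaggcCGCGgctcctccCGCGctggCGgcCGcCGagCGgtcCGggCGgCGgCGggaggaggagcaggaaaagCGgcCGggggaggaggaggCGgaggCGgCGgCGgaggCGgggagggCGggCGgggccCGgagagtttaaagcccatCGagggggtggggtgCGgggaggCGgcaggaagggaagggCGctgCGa
Ndn: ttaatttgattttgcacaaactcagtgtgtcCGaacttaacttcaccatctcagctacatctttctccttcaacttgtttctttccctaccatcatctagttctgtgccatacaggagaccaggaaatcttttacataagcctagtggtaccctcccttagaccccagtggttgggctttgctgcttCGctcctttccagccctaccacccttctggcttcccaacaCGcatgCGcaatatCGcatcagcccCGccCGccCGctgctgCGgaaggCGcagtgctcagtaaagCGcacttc
The Grb10 window held 45 CpG sites and 80% G or C, and 1.93% of 32851 windows held as many sites. The Ndn window held 11 CpG sites and 51% G or C, a count reached by 41.4% of windows, where the median was 7. The motif TGCCGC, bound in its methylated form by the imprint factor ZFP57, was searched on both strands. It was found 1 time in the Grb10 window and not in the Ndn window, and 11.6% of all windows held it. The windows were set by RefSeq starts and not by where methylation marks lie, so no conclusion on imprints was drawn. RefSeq windows matched 8 of the 10 genes.

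Gnas, on chromosome 2 at 174284320-174346744 on the plus strand, gives rise to several transcripts, of which some are imprinted and the main one is read from both alleles in most tissues. It was at 504, 607 and 621 CPM in control and at 541, 576 and 571 CPM in MaeaCsf1r-Cre libraries. The groups overlapped, and the MaeaCsf1r-Cre libraries lay within the range of the controls. The log2 fold change was -0.03 (SE 0.12, adjusted p = 0.982), and its sign turned under another scaling, with 0.03 after rescaling by median ratios. Its antisense neighbour Nespas, a paternally expressed noncoding RNA, was at 1.27, 0.227 and 0.438 CPM in control and at 0.847, 0.362 and 0.521 CPM in MaeaCsf1r-Cre. The library kit does not mark strand, so reads in overlapping parts of Gnas and Nespas cannot be told apart.

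Impact encodes a regulator that binds GCN1 and limits activation of the kinase GCN2 (Eif2ak4). It lies on chromosome 18 at 12955852-12992950 on the plus strand and is paternally expressed in the mouse. Impact was at 35.2, 21.2 and 22.6 CPM in control and at 13.5, 20.1 and 18.8 CPM in MaeaCsf1r-Cre libraries 1, 2 and 3. The groups did not overlap, but replicate 1 held both the highest control and the lowest MaeaCsf1r-Cre value. Within pairs the MaeaCsf1r-Cre level was 38.5, 94.7 and 83.4% of control. Per 1000 CPM of the HSC list, Impact was at 24.5, 9.66 and 10.9 CPM in control and at 13.4, 13.3 and 9.87 CPM in MaeaCsf1r-Cre libraries, so that the groups overlapped and 2 of 3 pairs were lower.

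The log2 fold change of Impact was -0.55 (SE 0.24, adjusted p = 0.967, and 0.367 with the replicate block). Without replicate 1 of both groups it was -0.16. Its partner genes had overlapping groups. Eif2ak4 was at 19.05, 29.3 and 30.9 CPM in control and at 24.2, 20.6 and 26.1 CPM in MaeaCsf1r-Cre libraries. The GCN1 gene, listed as Gcn1l1, had a log2 fold change of 0.10 (SE 0.11, adjusted p = 0.967). The genes most like Impact over the 6 libraries were Nupr1l, Dnajc12 and Zfp874b, with root mean square differences of 0.13, 0.16 and 0.16. Each of the 3 was highest in control replicate 1 and lowest in MaeaCsf1r-Cre replicate 1, as Impact was.

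Of the ligands, Dlk1 encodes a transmembrane protein related to the Notch ligands that restrains differentiation. It lies on chromosome 12 at 109452823-109463336 on the plus strand and is paternally expressed. Dlk1 was at 1.67, 1.97 and 2.10 CPM in control and at 1.77, 1.86 and 4.44 CPM in MaeaCsf1r-Cre libraries, or about 55 to 197 reads. MaeaCsf1r-Cre replicate 3 stood above the other 5 libraries, which overlapped. The log2 fold change was 0.27 (SE 0.30, adjusted p = 0.967), and without that library it was -0.05. Per 1000 CPM of the HSC list, Dlk1 was at 1.16, 0.897 and 1.02 CPM in control and at 1.75, 1.23 and 2.33 CPM in MaeaCsf1r-Cre libraries. On that scale, chosen after the values were seen, the MaeaCsf1r-Cre libraries lay above the controls without overlap. Its divisor, the summed CPM of the HSC list, was lower in MaeaCsf1r-Cre in every same-numbered pair. The share of all genes that separate on that scale was not computed.

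Among 14 stroma and endothelium markers, MaeaCsf1r-Cre replicate 3 was also the highest library for Cdh5 and Sparc, at 22.1 and 72.3 CPM. Control replicate 3 followed for both, with Sparc at 45.6 CPM, and had Dlk1 at 2.10 CPM. The other markers did not all follow. Emcn was highest in control replicate 3 (16.0 CPM, against 15.4 CPM in MaeaCsf1r-Cre replicate 3) and Pdgfrb in MaeaCsf1r-Cre replicate 2 (48.3 CPM). The part of stromal or endothelial RNA in the Dlk1 level was not tested. The genes most like Dlk1 were Filip1l, Il1rl2 and Slamf8, with root mean square differences of 0.09, 0.13 and 0.14. All 3 were highest in MaeaCsf1r-Cre replicate 3. Notch1, a receptor through which DLK1 is thought to act, is named after its values were seen. It was at 30.3, 49.1 and 41.3 CPM in control and at 12.0, 18.95 and 37.1 CPM in MaeaCsf1r-Cre. Its log2 fold change was -0.92 (SE 0.37, adjusted p = 0.967). Notch2 did not follow it, at 187, 288 and 221 CPM in control and at 192, 214 and 230 CPM in MaeaCsf1r-Cre libraries. The log2 fold change of Notch2 was -0.11 (SE 0.17, adjusted p = 0.968), with overlapping groups and higher values in 2 of 3 pairs.

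Igf2 encodes a fetal growth factor and lies on chromosome 7 at 142650766-142666816 on the minus strand. This paternally expressed gene was under the filter, at 0.243, 0.606 and 0.555 CPM in control and at 0.115, 0 and 0.271 CPM in MaeaCsf1r-Cre libraries. These values stand for about 8, 24 and 19 reads and about 7, 0 and 12 reads. The value was lower in 3 of 3 pairs, but MaeaCsf1r-Cre replicate 3 lay above control replicate 1. An exact permutation test gave p = 0.2 (two-sided, n = 3 per group), where 20 labellings allow no p under 0.1. The mRNA of its clearance receptor, the maternally expressed Igf2r, was at 20.5, 15.6 and 18.1 CPM in control and at 20.1, 11.4 and 22.2 CPM in MaeaCsf1r-Cre libraries.

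H19 is the maternally expressed noncoding RNA that neighbours Igf2, on chromosome 7 at 142575529-142578143 on the minus strand, 72.6 kb from it. It was at 0.0910, 0.934 and 0.526 CPM in control and at 0.0492, 0.0679 and 0.338 CPM in MaeaCsf1r-Cre libraries. The lowest values, in control replicate 1 and MaeaCsf1r-Cre replicates 1 and 2, were about 3 reads each, the limit set for detection. The groups overlapped, and the exact permutation test gave p = 0.2. A ratio of H19 to Igf2 was not taken, because Igf2 was at 0 in MaeaCsf1r-Cre replicate 2.

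H19 is the precursor of miR-675, whose 2 mature strands are shown because they are the small RNA product of this gene. The host row does not measure them, and the Mir675 row was at 0 in all 6 libraries. The kit does not capture small RNAs, so nothing follows for the mature strands. The sequences are from RefSeq (GRCm38.p6), 5′ to 3′, with the seed (bases 2 to 8) in capitals.
mmu-miR-675-5p: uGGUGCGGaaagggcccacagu
mmu-miR-675-3p: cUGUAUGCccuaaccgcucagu
The 2 seeds differ.

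Meg3 is the maternally expressed noncoding RNA that neighbours Dlk1, on chromosome 12 at 109541001-109571726 on the plus strand, 77.7 kb from it, and its locus is known for a part in HSC maintenance. It was at 0.128, 0.0505 and 0.257 CPM in control and at 0.148, 0.136 and 0.489 CPM in MaeaCsf1r-Cre libraries. Control replicate 2 was under the limit of 3 reads, with about 2 reads. Meg3 was higher in MaeaCsf1r-Cre in 3 of 3 pairs, highest in MaeaCsf1r-Cre replicate 3 as Dlk1 was, and the groups overlapped (exact permutation p = 0.5). No ratio of Meg3 to Dlk1 was taken, because Meg3 was under the limit in control replicate 2. Rian, a further noncoding RNA of the same locus, was at 0.637, 0.833 and 0.321 CPM in control and at 0.148, 0.226 and 0.609 CPM in MaeaCsf1r-Cre libraries.

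The zinc finger genes Peg3 and Plagl1 are both paternally expressed. Peg3 lies on chromosome 7 at 6703892-6730431 on the minus strand and Plagl1, which induces cell cycle arrest, on chromosome 10 at 13060504-13131694 on the plus strand. Peg3 was at 0.819, 0 and 1.52 CPM in control and at 0.656, 0.793 and 0.767 CPM in MaeaCsf1r-Cre libraries. Plagl1 was at 0.273, 0 and 0.789 CPM in control and at 0.131, 0 and 0.180 CPM in MaeaCsf1r-Cre libraries. Both were at 0 in control replicate 2, where a signal up to 0.0757 CPM (3 reads, counting error only) could be missed. Exact permutation tests gave p = 1 for Peg3 and p = 0.5 for Plagl1.

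The 10 genes were set beside a wider list of 61 imprinted genes, of which 60 were in the table, 29 passed the filter and 13 were at 0 in every library. None of the 29 passed the test. Their log2 fold change was below 0 for 24 and above 0 for 5, with a median of -0.23, against -0.06 and 60.9% below 0 over all genes tested. After rescaling by median ratios, 21 of 29 were below 0 (median -0.17, all genes 0.00), and after quantile normalization 20 of 29 (median -0.10, all genes 0.02). The groups did not overlap for 3 of the 29, all lower in MaeaCsf1r-Cre (10.3%, against 6.06% of all genes tested). In 3 of 3 pairs, 13 were lower (44.8%, against 23.5%). Of the HSC markers, 13 of 15 were also below 0 (median -0.35), and all 20 cell division genes listed were above 0 (median 0.15), with none past the test in either list. Under either rescaling 12 of 15 HSC markers were below 0 and the 20 cell division genes stayed above. Without MaeaCsf1r-Cre replicate 1, 21 of the 29 imprinted genes were below 0 (72.4%, against 62.3% of all genes tested). Their median was then -0.09, against -0.05 for all genes. It was -0.25 without MaeaCsf1r-Cre replicate 2 and -0.33 without MaeaCsf1r-Cre replicate 3 (all genes -0.02 and -0.09). Without MaeaCsf1r-Cre replicate 1 the medians of the HSC markers and cell division genes were -0.08 and 0.04. Without MaeaCsf1r-Cre replicate 3 that of the cell division genes was 0.07. Without replicate 3 of both groups it was 0.05. The part of the marker differences in the values of the imprinted list was not tested.

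**Figure D3:**
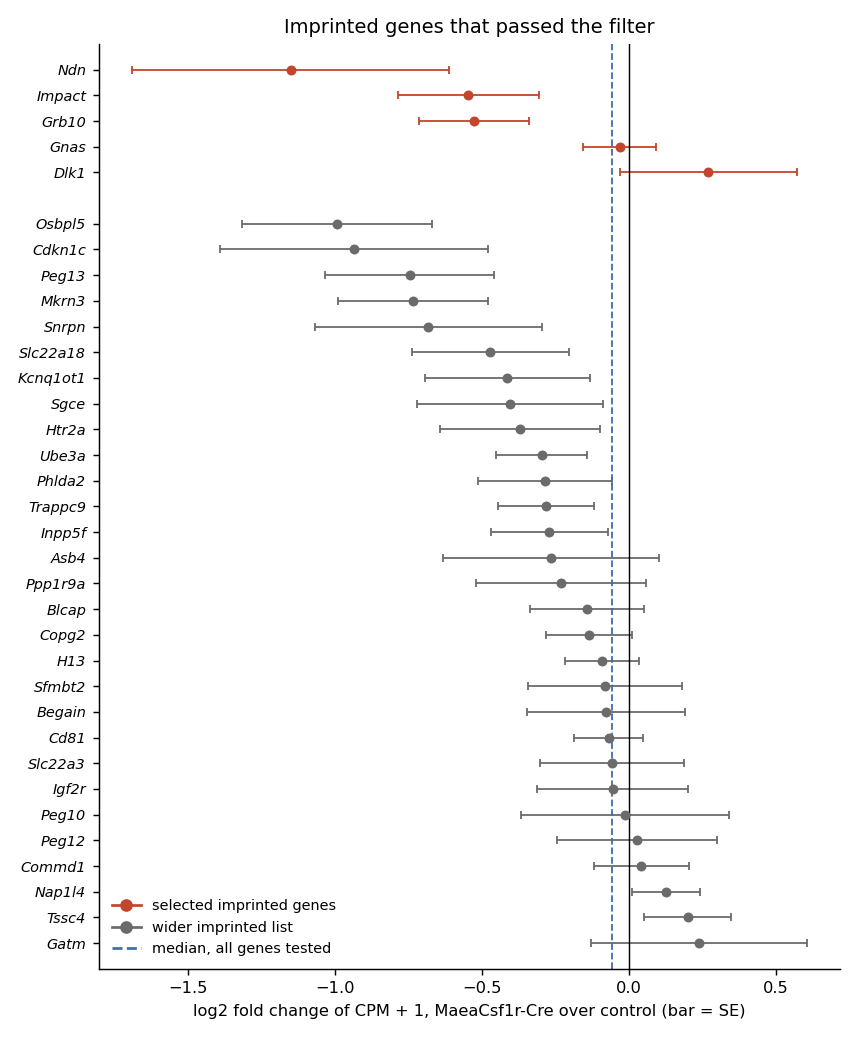
Log2 fold change of CPM + 1 (x axis, bars are SE) for the 5 selected genes that passed the filter, in red, and 29 further imprinted genes, in grey, with a dashed line at the median of all genes tested. Ndn has the lowest value (-1.15), followed by Osbpl5 (-0.99) and Cdkn1c (-0.94), and Dlk1 the highest (0.27).

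The 3 without overlap were Osbpl5, Peg13 and Mkrn3, which also had the smallest unadjusted p of the list in that direction. Osbpl5, which encodes a lipid transfer protein, was at 11.0, 12.3 and 8.38 CPM in control and at 2.79, 4.64 and 7.92 CPM in MaeaCsf1r-Cre libraries. Mkrn3, a ubiquitin ligase gene that shares the imprinted region of Ndn, was at 1.52, 2.45 and 2.75 CPM in control and at 0.771, 0.725 and 1.31 CPM in MaeaCsf1r-Cre libraries. The noncoding RNA Peg13 was at 41.5, 64.3 and 54.8 CPM in control and at 19.5, 38.7 and 39.4 CPM in MaeaCsf1r-Cre libraries. The lowest library of Osbpl5 and Peg13 was MaeaCsf1r-Cre replicate 1, and that of Mkrn3 was MaeaCsf1r-Cre replicate 2.

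Their log2 fold changes were -0.99 (SE 0.32), -0.73 (SE 0.25) and -0.75 (SE 0.29) for Osbpl5, Mkrn3 and Peg13, each with an adjusted p of 0.967. Per 1000 CPM of the HSC marker list, a scale chosen after the values were seen, Mkrn3 and Peg13 kept groups without overlap. Osbpl5 did not. The share of all genes that separate on that scale was not computed. The smallest unadjusted p above 0 were those of Tssc4, Nap1l4 and Gatm. Tssc4 had a log2 fold change of 0.20 (SE 0.15), Nap1l4 of 0.12 (SE 0.12) and Gatm of 0.24 (SE 0.37), and all 3 overlapped between groups. Gatm, which encodes an enzyme of creatine synthesis, was at 183, 80.1 and 96.8 CPM in control and at 208, 91.9 and 122 CPM in MaeaCsf1r-Cre libraries, highest in replicate 1 of each group.

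Cdkn1c, named after its values were seen, was at 11.6, 25.6 and 27.4 CPM in control and at 4.76, 13.1 and 15.7 CPM in MaeaCsf1r-Cre libraries. Within each group its order over libraries was that of Ndn, lowest in replicate 1. Within pairs the MaeaCsf1r-Cre level was 41.0, 51.3 and 57.5% of control. The log2 fold change was -0.94 (SE 0.46, adjusted p = 0.967, and 0.141 with the replicate block).

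Of 17 genes that set or keep imprints, 15 passed the filter, and none passed the test. The log2 fold change was below 0 for 11 (73.3%, against 60.9% of all genes tested) and above 0 for 4. Without overlap between groups, 1 of the 15 was lower (6.67%, against 6.06% of all genes tested) and 1 higher (against 2.49%). Trim28, the corepressor recruited by ZFP57, was at 334, 307 and 332 CPM in control and at 358, 340 and 341 CPM in MaeaCsf1r-Cre libraries, without overlap. Ehmt1, a histone methyltransferase gene, was at 73.0, 72.2 and 76.5 CPM in control and at 68.6, 53.4 and 62.9 CPM in MaeaCsf1r-Cre libraries, also without overlap. The log2 fold changes were 0.10 (SE 0.10) and -0.27 (SE 0.13). Both had an adjusted p of 0.967.

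Of 19 genes for protein partners of the 10 products, 18 were in the table and 15 passed the filter, and none passed the test. The log2 fold change was below 0 for 10 (66.7%, against 60.9% of all genes tested) and above 0 for 5. Groups did not overlap for 2 of the 15, both lower in MaeaCsf1r-Cre (13.3%, against 6.06% of all genes tested). Nedd4, the ubiquitin ligase that binds GRB10, was at 466, 521 and 563 CPM in control and at 377, 343 and 453 CPM in MaeaCsf1r-Cre libraries. Adcy3, an adenylate cyclase activated by the GNAS protein, was at 5.39, 10.2 and 9.63 CPM in control and at 3.99, 4.92 and 5.21 CPM in MaeaCsf1r-Cre libraries. Neither gene had overlapping groups. The log2 fold changes were -0.41 (SE 0.14) for Nedd4 and -0.68 (SE 0.26) for Adcy3, each with an adjusted p of 0.967. The insulin and IGF1 receptor genes Insr and Igf1r overlapped between groups, with log2 fold changes of -0.38 (SE 0.23) and -0.05 (SE 0.21).

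**Figure D4:**
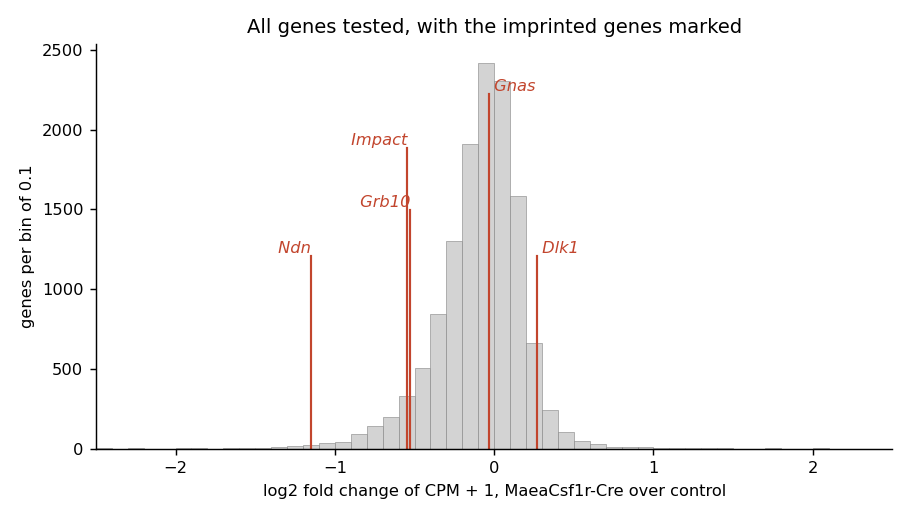
Number of genes (y axis) per bin of 0.1 of the log2 fold change of CPM + 1 (x axis) over 12955 genes tested, with red lines at the 5 imprinted genes that passed the filter. Ndn (-1.15) lies in the lower tail, Impact (-0.55) and Grb10 (-0.53) below most genes, and Gnas (-0.03) near the median of -0.06.

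Among the 5 genes tested, 2 had lower values without overlap, against 6.06% of all genes tested, and 3 were lower in all pairs, against 23.5%. The median log2 fold change was -0.53, against -0.06. Leaving out both libraries of a replicate number, chosen after the data were seen, gave 4, 2 and 3 lower genes without overlap for replicates 1, 2 and 3. Over all genes tested the matching shares were 24.6, 11.9 and 22.0%. The median of the 5 was -0.16 without replicate 1, -0.51 without replicate 2 and -0.55 without replicate 3. Replicate 1 was the pair with the lowest HSC marker sums, and the part of that difference in these values was not tested.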

How the data were processed

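Total RNA of sorted HSCs (CD150+ CD48- Lin- Sca-1+ c-Kit+) was made into cDNA with SMART-Seq v4 and into libraries with Nextera XT, which mark no strand. Per the labels and the methods of the study, the authors trimmed the reads (Trim Galore), mapped them to mm10 (STAR 2.5.3a) and assigned them to Ensembl transcripts with Partek Flow, each replicate being pooled from a pair of mice. Values were deposited as CPM per gene symbol with 0.0001 added, which was subtracted here. Steps between low CPM values gave the reads behind each scaling. Only 74.3 to 76.8% of low values lay on whole reads (tolerance 0.03), which did not allow counts to be rebuilt or a count test to be run. Each group has 3 libraries, and a signal of 3 reads was 0.0492 to 0.0910 CPM, which covers counting error only.

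Limma 3.58.1 in R 4.3.3 was fitted with a mean-variance trend to log2(CPM + 1) of the 12955 genes that reached 1 CPM in at least 3 libraries. Tests were two-sided, p-values were adjusted by Benjamini-Hochberg over these genes, and the threshold was 0.05. A fold change on this scale understates that of low genes. P-values measure the spread between these libraries. Genes under the filter had an exact permutation test of mean log2(CPM + 1). The script was tested on simulated data.

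Deviations from the group means correlated between same-numbered libraries (Pearson's r = 0.627, 0.523 and 0.397 across 12955 genes, which are not independent), so the label numbers were taken as pairing the libraries, from the data and not from the stated design, and fits with a replicate block were added. Other alternatives changed the pseudocount, filter, scaling, trend, transcript length and libraries.

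The genes and lists were chosen with earlier results of these data known. Besides the 10 genes and Maea, a rule named the tested genes without overlap between groups from the wider imprinted, imprint maintenance and protein partner lists. It also named the 3 smallest p in each direction of the wider imprinted list. The 3 genes most like each of the 3 most variable genes tested were named too. Named outside this rule were Igf2r, Rian, Nespas, Eif2ak4, Gcn1l1, Insr, Igf1r, Notch1, Notch2, Cdkn1c, Airn, Zdbf2 and Ano1. The same holds for cell type markers shown singly. Coordinates and exon lengths are from GENCODE M21 (GRCm38), which is later than the annotation the authors used and matched 44027 of 46959 rows. Sequences are from RefSeq.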

Additional observations from a re-analysis of the deposited data

How the results depend on the processing

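None of the 10 imprinted genes and none of the wider imprinted list passed the threshold in any of the 18 alternatives in which they could be tested. With the replicate block, 1 of 12955 genes passed, BC023719, as without it, and no call on an imprinted gene changed. Unadjusted p under 0.05 was reached by 517 genes, and by 1805 with the block. With no filter 1 gene passed, Cd209f, and not BC023719, and without MaeaCsf1r-Cre replicate 3 it was Rps18-ps3. The count of genes called was 0 with a filter of 10 CPM, 2 with the length correction and replicate block together, 0 to 1 when single libraries were left out, and 0 when both libraries of any replicate number were left out (chosen after seeing the data). It was 0 without control replicate 2 or 3 and without MaeaCsf1r-Cre replicate 1 or 2.

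The direction of Grb10, Ndn, Impact, H19 and Igf2 held in every fit that gave a value. Meg3 and Plagl1 kept their sign, but Meg3 went from 0.13 to 0.000042 without MaeaCsf1r-Cre replicate 3 and Plagl1 from -0.26 to -0.035 without control replicate 3. Gnas turned sign with rescaling by median ratios (0.031), with the length correction (0.036, also with the replicate block), without control replicate 2 (0.0079) or 3 (0.024) and without replicate 3 of both groups (0.013). Dlk1 turned without MaeaCsf1r-Cre replicate 3 (-0.047) and without replicate 3 of both groups (-0.00017). Peg3 turned without control replicate 2 (-0.30) and without replicate 2 of both groups (-0.32). When libraries were left out, the log2 fold change was -0.047 to 0.44 for Dlk1, -0.13 to 0.02 for Gnas, -0.68 to -0.39 for Grb10, -1.67 to -0.69 for Ndn, -0.78 to -0.16 for Impact, -0.59 to -0.12 for H19, -0.49 to -0.22 for Igf2 and -0.32 to 0.37 for Peg3. The median of the genes tested was -0.61 to -0.16 in those fits, with the highest value without replicate 1 of both groups. The cause of these changes was not tested. H19, Igf2, Meg3, Peg3 and Plagl1 were each at 3 reads or fewer in at least 1 library, near or under the limit of detection. The part of sequencing depth in this was not tested.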

Other observations

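Below the filter were 31 genes of the wider imprinted list, 13 of them at 0 in every library. Groups did not overlap for 3 of the 31, which are named after their values were seen. The share over all genes below the filter was not computed. Airn, the noncoding RNA antisense to Igf2r, was at 0.576, 0.606 and 0.935 CPM in control and at 0.361, 0.0906 and 0.293 CPM in MaeaCsf1r-Cre libraries. Zdbf2, a paternally expressed gene, was at 0.0607, 0.0757 and 0.467 CPM in control and at 0, 0 and 0.0451 CPM in MaeaCsf1r-Cre libraries, at or under 3 reads in 5 of the 6. Ano1, a chloride channel gene, was at 0 in all 3 control libraries and at 0.246, 0.702 and 0.135 CPM in MaeaCsf1r-Cre libraries. These genes entered only the fit with no filter, where none of them passed the threshold.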
